A study of Mus musculus with 6 samples.

Results

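The genes described here encode the metalloproteinases that cut the matrix around cells, and the inhibitors of those enzymes: the matrix metalloproteinases (Mmp), the ADAM and ADAMTS proteases (Adam, Adamts), the ADAMTS-like proteins (Adamtsl) and the tissue inhibitors of metalloproteinases (Timp). They were chosen by gene symbol alone, as 1 of these 5 stems followed by a number and at most 1 letter, and 55 of the 16454 genes in the table met that rule. They comprise 13 Mmp, 4 Timp, 17 Adamts, 4 Adamtsl and 17 Adam genes. RefSeq's annotation of the mouse build GRCm38.p6 holds 85 protein-coding genes with such symbols. The other 30 were not analysed here, among them the collagenases Mmp1a, Mmp1b, Mmp8 and Mmp13, the stromelysins Mmp3 and Mmp10, the matrilysin Mmp7 and 17 Adam genes. No source used here gives the filter on low values behind the table.

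RNA was sequenced from whole ovaries of mice of the CD1 strain at postnatal day 21, in the F3 generation, meaning generation 3 after the F0 dams. The F0 dams of the DEHP lineage had been given di(2-ethylhexyl) phthalate (DEHP), a plasticizer, at 20 ug/kg/day, and those of the control lineage the vehicle, corn oil stripped of tocopherol. Both lineages thus share strain, tissue, age and generation, and the dosing named in the labels is that of the F0 dams. Each lineage had 3 ovaries, sequenced singly and numbered replicates 1 to 3. Litters and the number of founding dams are absent from the labels. A p-value thus measures the spread between these ovaries in the deposited values, which may not be the spread between founders. The comparison asks what distinguishes ovarian transcripts of the 2 lineages long after the dosing.

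A whole ovary mixes cell types, and fewer cells of a type cannot be told apart from less RNA per cell. The markers of the labelled tissue were present: 10 of 10 oocyte, 8 of 8 granulosa and 7 of 7 theca and interstitial markers were in the table, with summed CPM (read counts scaled to a common library total) of 872 to 1211, 5813 to 7591 and 2586 to 3453 per ovary. Of 7 neutrophil markers, 0 were in the table, and of 6 mast cell markers 1 was, the receptor gene Kit, which oocytes also express. Granulosa sums (5813 to 6581 in control, 6594 to 7591 in DEHP-lineage ovaries), lymphatic endothelium and oviduct sums were higher in the DEHP lineage without overlap. By marker, however, 4 of 8 granulosa markers had higher and 4 lower means. Inha, the granulosa marker with the highest level (log2 CPM 11.90 to 12.43), was higher without overlap, and Amh was lower without overlap. Higher means were found for 5 of 5 measured lymphatic endothelium and 4 of 5 measured oviduct markers, against 46.9% of all genes. Theca and interstitial (2783 to 3453, 2586 to 2671), smooth muscle and pericyte sums were lower without overlap. Lower means were found for 7 of 7 theca and interstitial, 7 of 7 smooth muscle and 6 of 7 pericyte markers. Of the pericyte markers 14.3% were themselves without overlap, against 22.9% of all genes. For each sum without overlap the exact permutation p was 0.1, the smallest that 3 ovaries against 3 allow. Sums of the other measured marker lists overlapped. The part of cell make-up in the members' values was not tested. The depth of the libraries is unknown, and the summed CPM was 979868 to 1026735 per ovary. The authors had removed a surrogate variable, an estimated nuisance pattern across samples, whose largest weights were -0.60 and 0.75 on DEHP-lineage replicates 1 and 3. Their values lie close together in what follows: the median distance between them over the 55 genes was 0.043 on the log2 scale, against 0.149 between DEHP replicate 2 and their mean. Over all genes the corresponding medians were 0.054 and 0.149. The median SD over the 55 genes was 0.089 in the DEHP lineage and 0.204 in the control lineage. Over all genes these SDs were 0.096 and 0.149. The DEHP-lineage SD was the smaller in 41 of the 55 genes (74.5%), against 69.6% of all genes. The SDs and p-values below measure the spread left after the surrogate variable was removed.

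In these families the catalytic zinc ion is held by 3 histidines of a short stretch that also carries the glutamate used in catalysis. Most members are made as inactive precursors, and TIMP proteins block the active enzymes by filling the active site. In the ovary the families are best known from follicle growth, ovulation and the formation of the corpus luteum, when the follicle wall and the matrix around the oocyte are rebuilt. ADAM10 and ADAM17 act mainly on proteins of the cell surface, which they cut free, and the ADAMTS-like proteins lack the protease part.

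The stretch was searched in the longest complete coding sequence of each gene in GENCODE release M21 (GRCm38), in frame, as codons for histidine, glutamate, any 2, histidine, any 2, glycine or asparagine, any 2 and histidine. It was found in 13 of 13 Mmp, 16 of 17 Adamts and 9 of 17 Adam genes, and in 0 of 4 Adamtsl and 0 of 4 Timp genes. The codons are shown for members that carry the results below, 5′ to 3′, with those for the 3 histidines, the glutamate and the glycine or asparagine in capitals. Adamts19, described below, also matched, in the glycine form, and its codons are not printed.
Mmp2: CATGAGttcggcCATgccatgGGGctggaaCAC
Mmp14: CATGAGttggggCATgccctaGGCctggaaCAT
Mmp12: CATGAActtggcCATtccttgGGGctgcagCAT
Mmp23: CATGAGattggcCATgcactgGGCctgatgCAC
Adam8: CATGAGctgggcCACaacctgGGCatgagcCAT
Adam10: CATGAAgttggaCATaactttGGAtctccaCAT
Adam17: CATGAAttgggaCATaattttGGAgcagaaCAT
Adamts17: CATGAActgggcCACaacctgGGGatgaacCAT
Adamts5: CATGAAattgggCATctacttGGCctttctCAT
Adamts1: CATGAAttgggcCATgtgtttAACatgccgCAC
Adamts4: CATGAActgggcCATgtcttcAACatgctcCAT
Adamts9: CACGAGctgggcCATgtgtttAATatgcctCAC
The asparagine form was found in 5 members, Adamts1, Adamts4, Adamts9, Adamts15 and Adamts20, all of the group that cleaves aggrecan and versican. The search was widened to asparagine after the glycine form was not found in these genes. Adamts5 of the same group had the glycine form, and these letters were not found in Adamts8. The 8 Adam genes without a match were Adam2, Adam3, Adam4, Adam5, Adam11, Adam22, Adam23 and Adam32. The 38 members with the stretch had a median log2 CPM of 4.65 and the 17 without it one of 1.67.

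Levels of different genes were compared per length, as the mean CPM over the 6 ovaries per kb of exonic sequence. The sheddase gene Adam10 stood first at 66.9 CPM per kb, followed by Adamts2, which encodes a procollagen N-propeptidase, at 60.4. Next came the stromelysin-3 gene Mmp11 at 50.4, the membrane-type protease gene Mmp14 at 48.4, the inhibitor gene Timp2 at 44.5 and the gelatinase A gene Mmp2 at 43.6. MMP14, TIMP2 and MMP2 are known to act together, with MMP14 activating the MMP2 precursor through bound TIMP2. Adamts10 and Mmp23 followed at 33.003 and 32.5 CPM per kb, and then Timp1 at 21.9, Adam17 at 21.8, Adam9 at 21.3 and Timp3 at 20.7. At the other end Mmp12 had 0.153, Timp4 0.151, Adam23 0.143, Mmp24 0.139 and Mmp25 0.0935 CPM per kb. The gelatinase B gene Mmp9 was at 0.534 CPM per kb, far below its relative Mmp2. By CPM not divided by length, 10 members had means of at least 100, 18 had means from 10 to under 100, 20 had means from 1 to under 10 and 7 had means under 1.

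**Figure D1:**
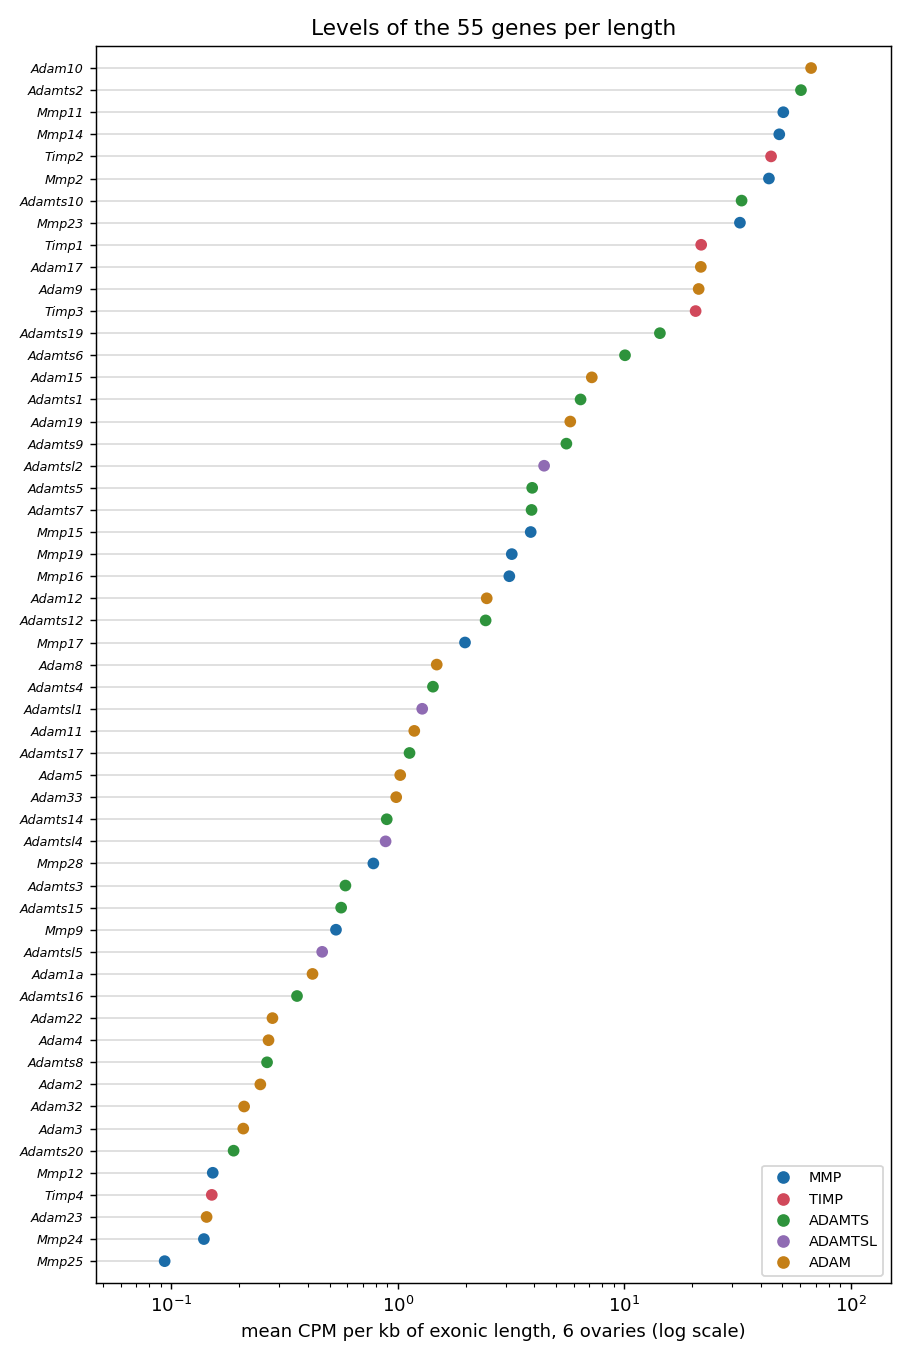
Mean CPM per kb of exonic length over the 6 ovaries (log axis) for each of the 55 genes, coloured by family and sorted by level. The points run from 0.0935 for Mmp25 to 66.9 for Adam10, and Mmp, Timp, Adamts and Adam genes all occur among the 10 highest.

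No member passed the adjusted threshold of 0.05 over all genes (limma with Benjamini-Hochberg adjustment over 16454 genes, 0 of 55, smallest adjusted p 0.418), where 0.0425% of all genes did. Unadjusted p values under 0.05 were found for 6 members (10.9%), against 8.78% of all genes: 4 with higher means in the DEHP lineage (Adam8, Mmp12, Adamts17 and Mmp23; background 4.76%) and 2 with lower means (Adamts19 and Adamts1; background 4.02%). In the authors' deposited table, of the 55 members 5 had an unadjusted p under 0.05, against 6.18% of all genes, and 0 an adjusted p under 0.05, against 0.0182%. The ovaries of the lineages did not overlap in 15 members (27.3%), against 22.9% of all genes, with 7 higher (background 10.8%) and 8 lower (12.2%) in the DEHP lineage. Means were higher in the DEHP lineage for 28 members (46.9% of all genes) and lower for 27, with a median log2 fold change of 0.0080 against -0.012 over all genes. These shares lay near those of all genes. Among the 44 members with a mean log2 CPM of at least 1, 22 had higher and 22 lower means, with a median of 0.0027. Of the 38 members with the zinc-binding stretch, 19 had higher and 19 lower means. All 6 members with an unadjusted p under 0.05 were among these 38, where 8.78% of all genes had such a p. The 17 members without the stretch had lower levels (median log2 CPM 1.67 against 4.65), so stretch and level cannot be told apart here. An unadjusted p under 0.05 was found in 14 of 14 alternative settings for Adam8 and Adamts19, in 12 of 13 for Mmp12, and in 10, 9 and 8 of 14 for Adamts17, Mmp23 and Adamts1. Some counts rested on single ovaries. Lower members with an unadjusted p under 0.05 numbered 1 without control replicate 1, control replicate 2 or DEHP replicate 1, where 3.56%, 3.82% and 2.996% of all genes were so, and 4 without control replicate 3, where 3.26% were. Without DEHP replicate 1 the adjusted count was 1 of 55, that of Adamts19, in a setting where 1.64% of all genes were called. Higher members without overlap numbered 11 without control replicate 1, 14 without control replicate 2 and 11 without DEHP replicate 2, where 16.5%, 17.6% and 17.9% of all genes were so. Lower members without overlap numbered 13 without control replicate 3 and 14 without DEHP replicate 2, where 18.9% and 20.2% of all genes were so.

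Adam8 (Entrez 11501, chromosome 7, 139978932 to 139995207) encodes a membrane protease known mainly from leukocytes. Its log2 CPM was 2.15, 2.01 and 2.70 in control replicates 1 to 3 and 3.12, 3.22 and 3.08 in DEHP replicates 1 to 3. Every DEHP-lineage ovary lay above every control ovary, and control replicate 3 was nearest to them. The means were 4.99 ± 1.33 and 8.81 ± 0.443 CPM (SD, n = 3 each), a log2 fold change of 0.85 (SE 0.22, 95% interval 0.34 to 1.37, limma unadjusted p 0.0055, adjusted p 0.418).

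Mmp12 (Entrez 17381, chromosome 9, 7344397 to 7360461) encodes macrophage metalloelastase. Its log2 CPM was -0.58, -1.34 and -0.30 in the control ovaries and 0.73, 0.52 and 0.73 in the DEHP-lineage ovaries. All 3 control ovaries were lower, control replicate 2 by most. Mean levels were 0.624 ± 0.211 and 1.58 ± 0.134 CPM (SD, n = 3 each), near the low end of the table, and the log2 fold change was 1.40 (SE 0.36, limma adjusted p 0.42). With 1 CPM added before the log, the fold change was 0.68.

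Both genes are known from myeloid cells, and the macrophage markers of the table were therefore set beside them. All 8 of 8 listed macrophage markers were measured, with a summed level of 37.8 to 104 CPM in the control ovaries and 64.2 to 70.4 CPM in the DEHP-lineage ovaries. The marker nearest the floor, Fcgr1, had log2 CPM of -0.39 to 0.67. Control replicate 2, lowest for Adam8 and Mmp12, was also lowest for the summed markers, at 37.8 CPM. Control replicates 1 and 3 had sums of 88.7 and 104 CPM, above all DEHP-lineage ovaries, while their Adam8 and Mmp12 levels were below all of them. The macrophage list had a median log2 fold change of 0.035 with 0 of 8 members at an unadjusted p under 0.05, against 8.78% of all genes (limma). The part of macrophage RNA in the values of Adam8 and Mmp12 was not tested.

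Mmp23 (Entrez 26561, chromosome 4, 155650655 to 155654539) encodes a membrane-bound metalloproteinase that is released by cleavage within the cell and is known for its expression in ovary. Its log2 CPM was 6.24, 6.17 and 5.87 in the control ovaries and 6.41, 6.28 and 6.44 in the DEHP-lineage ovaries. The lineages did not overlap, but control replicate 1 and DEHP replicate 2 differed by less than the SD of either lineage. The means of 68.6 ± 9.08 and 83.3 ± 4.82 CPM (SD, n = 3 each) differed by 0.29 on the log2 scale (SE 0.11, limma adjusted p 0.555).

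**Figure D2:**
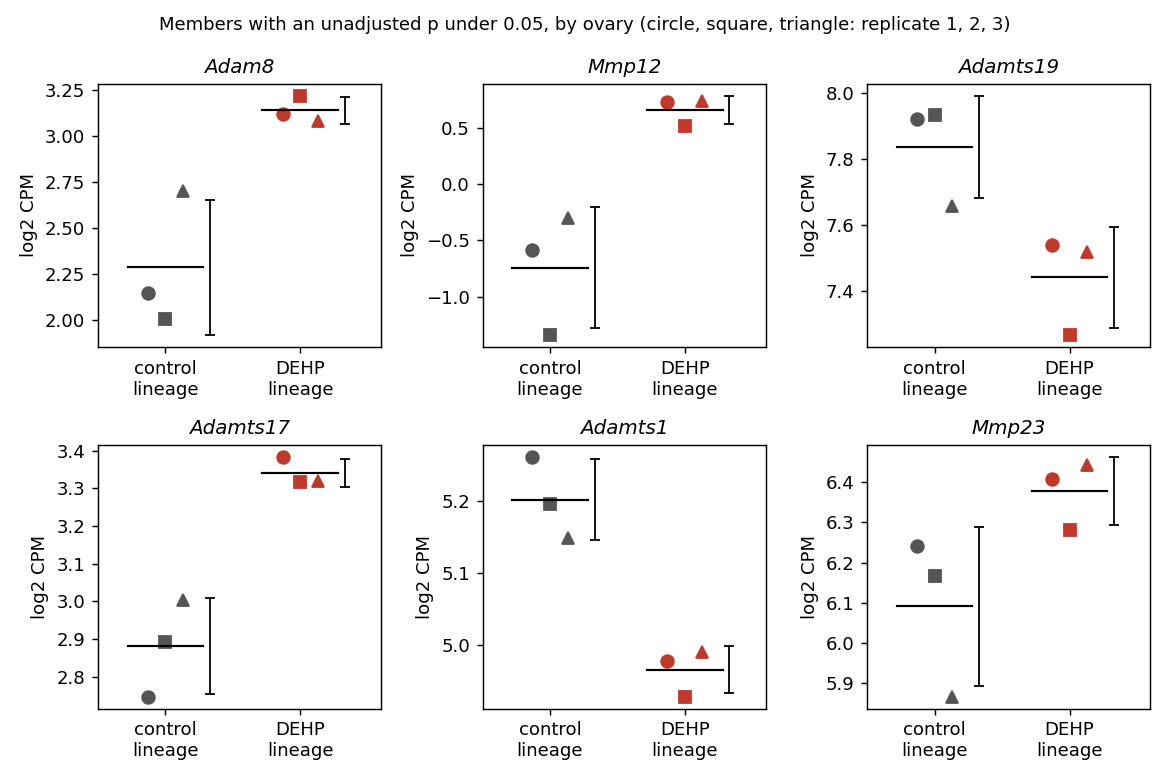
Log2 CPM by ovary for the 6 members with an unadjusted p under 0.05, with circles, squares and triangles for replicates 1, 2 and 3, a line at each lineage mean and a bar of 1 SD beside it; each panel has its own axis, which does not start at 0. In each panel the 3 DEHP-lineage ovaries lie on one side of the 3 control ovaries, and for Mmp12 the control ovaries spread from -1.34 to -0.30.

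None of the other matrix metalloproteinase genes had an unadjusted p under 0.05. The gelatinase A gene Mmp2 had log2 CPM of 7.23, 7.13 and 7.16 in control and 7.29, 7.10 and 7.27 in DEHP-lineage ovaries. These ranges overlap, and the 95% interval of the difference was -0.14 to 0.23. For the MMP2 activator gene Mmp14 the values were 8.20, 8.29 and 7.98 against 8.24, 8.08 and 8.22, with an interval of -0.22 to 0.26. Mmp15, a relative of Mmp14 that is also anchored in the membrane, was at 4.39, 4.43 and 4.41 against 4.42, 4.26 and 4.38 (interval -0.29 to 0.18). Both intervals leave out a change of 0.5 on the log2 scale in either direction.

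Mmp9, which encodes gelatinase B of neutrophils and other cells, was at 0.73, 1.12 and 0.86 in control and 0.86, 1.07 and 0.84 in DEHP-lineage ovaries, with overlapping ranges. The interval of its difference, -0.57 to 0.61, was wide at this low level. Mmp19, known from follicle growth and ovulation, was at 3.65, 3.62 and 3.21 against 3.37, 3.58 and 3.48 (interval -0.41 to 0.38). Mmp11, a stromelysin expressed by stromal cells during remodelling, was at 7.14, 7.12 and 6.30 against 7.51, 6.90 and 7.50. Control replicate 3 was low and DEHP replicate 2 lay below control replicates 1 and 2, so the lineages overlapped. The log2 fold change of Mmp11 was 0.45 with an interval of -0.16 to 1.06. The remaining 5 of the 13 Mmp genes, not named above, were Mmp16, Mmp17, Mmp24, Mmp25 and Mmp28, with log2 fold changes from -0.54 for Mmp28 to 0.11 for Mmp16. Mmp28, the epilysin gene, was the only one of these 5 without overlap: control ovaries were at 1.46 to 2.03 and DEHP-lineage ovaries at 1.22 to 1.33 (adjusted p 0.58 by limma).

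Of the inhibitor genes, Timp1, Timp2 and Timp3 had narrow intervals and Timp4 a wide one. Timp2 was at log2 CPM of 7.42, 7.42 and 7.34 in control and 7.47, 7.50 and 7.48 in DEHP-lineage ovaries, without overlap but with a difference of only 0.088 (interval -0.067 to 0.24). Timp1 was at 4.20, 4.44 and 4.34 against 4.29, 4.18 and 4.22 (interval -0.36 to 0.16). Timp3, whose protein stays bound to the matrix, was at 7.25, 7.50 and 7.48 against 7.53, 7.18 and 7.40 (interval -0.31 to 0.23). A change of 0.5 on the log2 scale in either direction lies outside all 3 intervals. Timp4 was at -0.38, 0.25 and 0.27 in control ovaries and at -1.20, 0.34 and -1.05 in the DEHP lineage. DEHP replicate 2 was the highest of all 6 ovaries and DEHP replicates 1 and 3 the lowest, and the interval of the difference was -1.83 to 0.47. Of the inhibitor genes, 3 overlap synapsin genes on the opposite strand: Timp3 shares 21.3% of its exonic bases with Syn3 and Timp4 1.53% with Syn2, while Timp1 shares 0 exonic bases with Syn1. No source used here says whether the counting used the strand.

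Among the ADAMTS proteases, Adamts1 (Entrez 11504, chromosome 16, 85793827 to 85803113) cleaves versican in the follicle and is known as a progesterone receptor target at ovulation. Its log2 CPM was 5.26, 5.20 and 5.15 in control and 4.98, 4.93 and 4.99 in DEHP-lineage ovaries. The lineages did not overlap, and the gap between the nearest ovaries, control replicate 3 and DEHP replicate 3, was larger than the SD of either lineage. The means of 36.8 ± 1.44 and 31.3 ± 0.704 CPM (SD, n = 3 each) differed by -0.24 (SE 0.083, limma unadjusted p 0.024, adjusted p 0.511). Its neighbour Adamts5, an aggrecanase gene (chromosome 16, 85858157 to 85901125), was at 5.76, 5.82 and 5.12 against 4.65, 5.72 and 4.94. Here DEHP replicate 2 lay among the control ovaries, and the interval was -1.16 to 0.24.

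Adamts19 (Entrez 240322, chromosome 18, 58835992 to 59053682) was among the most abundant Adamts genes, with means of 229 ± 23.8 CPM (SD, n = 3) in control and 174 ± 17.8 CPM (SD, n = 3) in DEHP-lineage ovaries. Log2 CPM was 7.92, 7.93 and 7.66 against 7.54, 7.27 and 7.52, with every DEHP-lineage ovary below every control ovary. The log2 fold change was -0.40 (SE 0.11, limma adjusted p 0.458). Without DEHP replicate 1 it was -0.44 with a limma adjusted p of 0.0414, in a fit of 5 ovaries that pooled the spread over all genes. Over its 14 alternatives the limma adjusted p ran from 0.0414 to 0.9999, with a fold change of -0.48 to -0.31.

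Adamts17 (Entrez 233332, chromosome 7, 66839699 to 67153171), a gene linked to fibrillin microfibrils, was at log2 CPM of 2.75, 2.89 and 3.003 in control and 3.38, 3.32 and 3.32 in DEHP-lineage ovaries. The lineages did not overlap, and their means were 7.39 ± 0.652 and 10.1 ± 0.265 CPM (SD, n = 3 each). The log2 fold change was 0.46 (SE 0.15, limma adjusted p 0.491).

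Of the other proteoglycan-cleaving members, Adamts4, Adamts9 and Adamts15 overlapped between lineages, while Adamts8 and Adamts20 did not. Adamts8 was at -0.49 to 0.28 in control and 0.54 to 0.57 in DEHP-lineage ovaries, and Adamts20 at 0.70 to 1.17 against 0.49 to 0.59, both at low levels (limma adjusted p 0.622 and 0.705). Adamts4, the other classical aggrecanase, was at 3.06, 3.13 and 2.34 in control and 2.87, 2.22 and 2.83 in DEHP-lineage ovaries (interval -0.87 to 0.47). Adamts9, which also cleaves versican, was at 6.21, 6.56 and 6.33 against 6.37, 6.48 and 6.34 (interval -0.21 to 0.28). Of the 7 genes of this group, 5 had lower means in the DEHP lineage, with a median log2 fold change of -0.20 and fold changes from -0.46 for Adamts5 to 0.62 for Adamts8.

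The procollagen propeptidase gene Adamts2 had the highest CPM of all Adamts genes, at 9.17, 9.33 and 8.74 against 9.27, 8.98 and 9.25. Control replicate 3 was lowest and control replicate 2 highest, so that the DEHP-lineage ovaries lay within the control range. The difference was 0.088 (interval -0.30 to 0.47). Of the 3 procollagen propeptidase genes, Adamts3 had a fold change of 0.53 and Adamts14 one of -0.22, both with intervals that span 0. Over the 17 Adamts genes the median log2 fold change was -0.021, from -0.46 for Adamts5 to 0.62 for Adamts8. Of them, 3 were higher and 4 lower without overlap, 41.2% in both directions against 22.9% of all genes. Of the 4 Adamtsl genes, 0 were without overlap, against the same 22.9%, and their fold changes ran from -0.17 for Adamtsl2 to 0.72 for Adamtsl5. The most abundant by CPM was Adamtsl2, which encodes a protein that binds fibrillin, at 4.98, 5.08 and 5.58 in control and 5.21, 4.87 and 5.05 in DEHP-lineage ovaries (interval -0.57 to 0.24).

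The sheddase genes had close values in both lineages. Adam10, whose protease cuts Notch receptors and other surface proteins, was at log2 CPM of 8.30, 8.52 and 8.42 in control and 8.35, 8.27 and 8.29 in DEHP-lineage ovaries. The ranges overlapped, and the difference of -0.11 had an interval of -0.31 to 0.086. Adam17, which frees TNF and ligands of the EGF receptor, was at 7.34, 7.38 and 7.26 against 7.19, 7.32 and 7.22 (interval -0.26 to 0.092). Adam9 had lower values without overlap, at 6.46 to 6.60 against 6.37 to 6.42, by 0.12 on the log2 scale (adjusted p 0.672 by limma). Of the 17 Adam genes, 8 had higher and 9 lower means, with a median of -0.015 and a range from -0.56 for Adam32 to 0.85 for Adam8. The sperm gene Adam2 and the genes Adam3, Adam4 and Adam32 had mean levels under 1 CPM, and their intervals reached a size of at least 1.17 in one direction. Adam1a shared 78.4% of its 31-base words with other annotated genes and Adam4 33.3%, so that their separate levels are uncertain. The other 53 members shared under 5%.

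**Figure D3:**
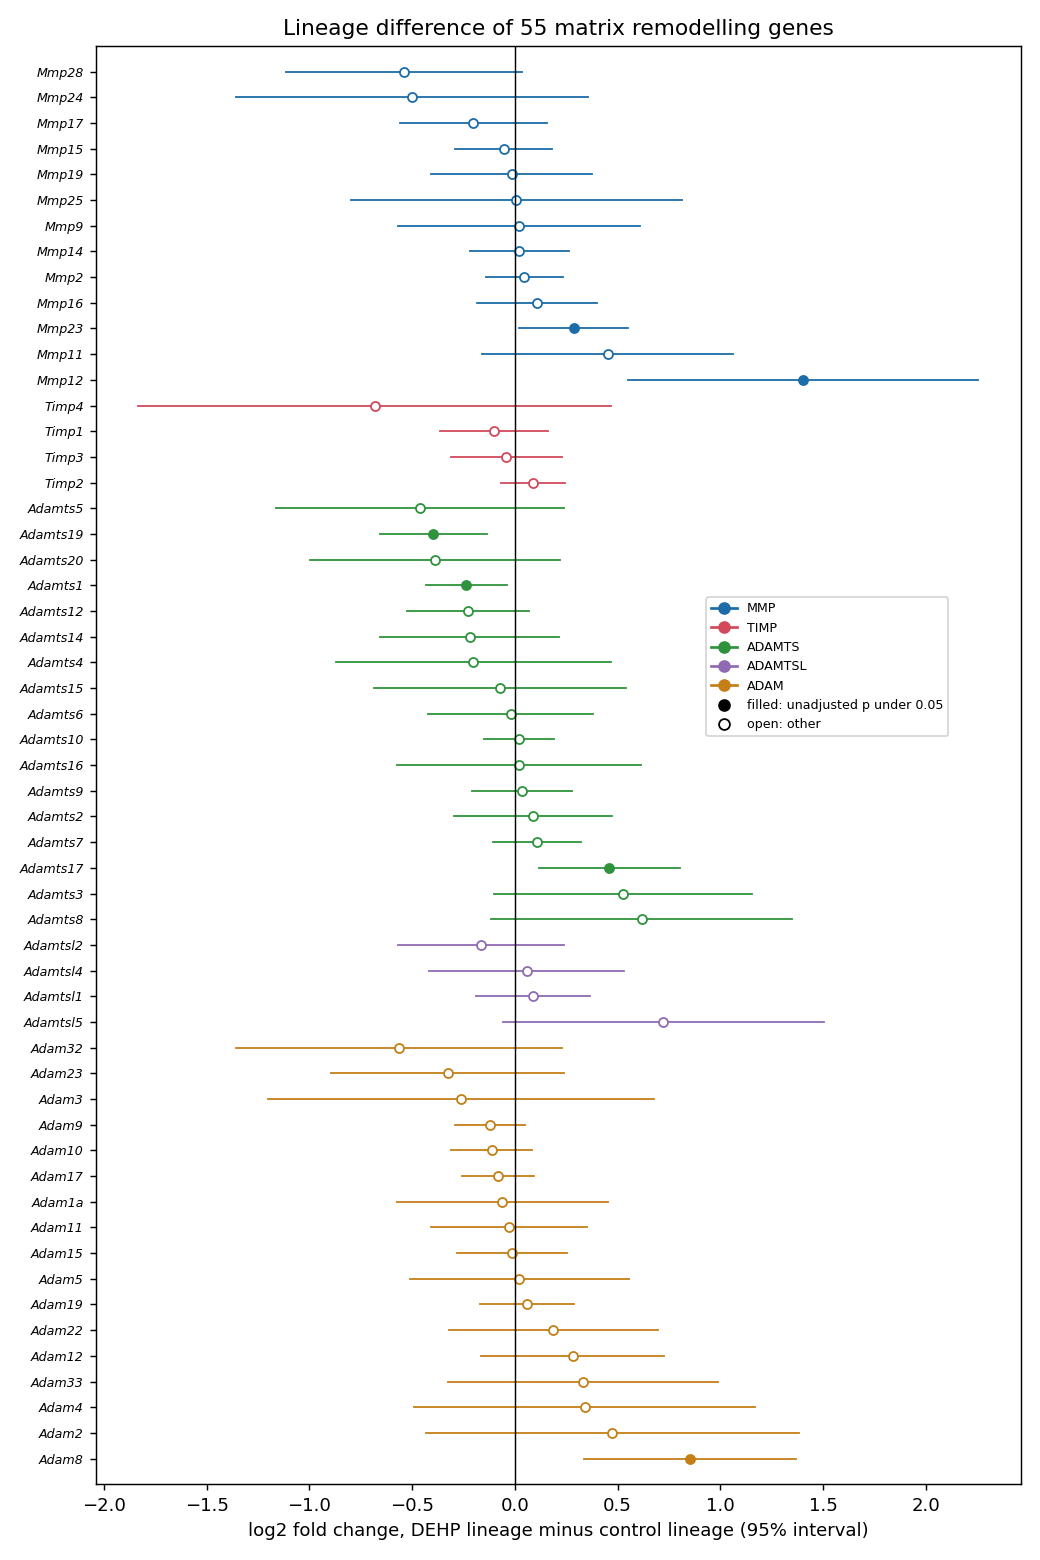
Log2 fold change of each of the 55 genes, DEHP lineage minus control lineage, with its 95% interval from limma; filled points have an unadjusted p under 0.05. Of the 55 points, 28 lie above 0 and 27 below, the 6 filled points have intervals that leave out 0, and Mmp12 lies farthest out at 1.40.

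Summed over each family, the levels also overlapped. The 13 Mmp genes summed to 699 ± 77.5 CPM in the control and 762 ± 66.6 CPM in the DEHP lineage (SD, n = 3 each), and the 4 Timp genes to 360 ± 16.9 and 364 ± 18.4 CPM. The 17 Adamts genes summed to 1383 ± 176 and 1342 ± 36.9 CPM, the 4 Adamtsl genes to 58.9 ± 7.74 and 56.5 ± 3.68 CPM, and the 17 Adam genes to 735 ± 35.6 and 702 ± 10.4 CPM. Exact two-sided permutation tests of the log2 sums gave p of 0.5, 0.7, 0.8, 0.8 and 0.2, each 0.8 after Benjamini-Hochberg adjustment over the 5 families. With 3 ovaries against 3 the smallest p such a test allows is 0.1.

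In several members DEHP replicate 2 stood apart from DEHP replicates 1 and 3. The median distance of DEHP replicate 2 from their mean was 0.149 over the 55 genes and also over all genes. The removed surrogate variable had its largest weights on DEHP replicates 1 and 3. DEHP replicate 2 differed from the mean of DEHP replicates 1 and 3 by 1.47 for Timp4, 0.93 for Adamts5, 0.72 for Adam33, 0.62 for Adamts15 and 0.53 for Adamtsl5 on the log2 scale. In the other direction it lay lower by 0.67 for Mmp24, 0.63 for Adamts4 and 0.60 for Mmp11. These 8 members were singled out after their values were seen. All 7 of 7 listed adipocyte markers were measured, and their summed level was 502 CPM in DEHP replicate 2 against 47.5 and 97.9 CPM in replicates 1 and 3 and 61.1 to 230.3 CPM in the control ovaries. The marker nearest the floor, Lep, had log2 CPM of -1.79 to 2.57. Control replicate 1 had the highest sum of the control ovaries and the lowest Timp4 level among them. The part of adipocyte RNA in the values of these members was not tested. Without DEHP replicate 2 the log2 fold change of Timp4 was -1.17 and that of Adamts5 was -0.77, against -0.68 and -0.46 with all ovaries. In the control lineage, replicate 3 lay below the mean of replicates 1 and 2 by 0.83 for Mmp11, 0.75 for Adamts4, 0.67 for Adamts5 and 0.50 for Adamts2.

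**Figure D4:**
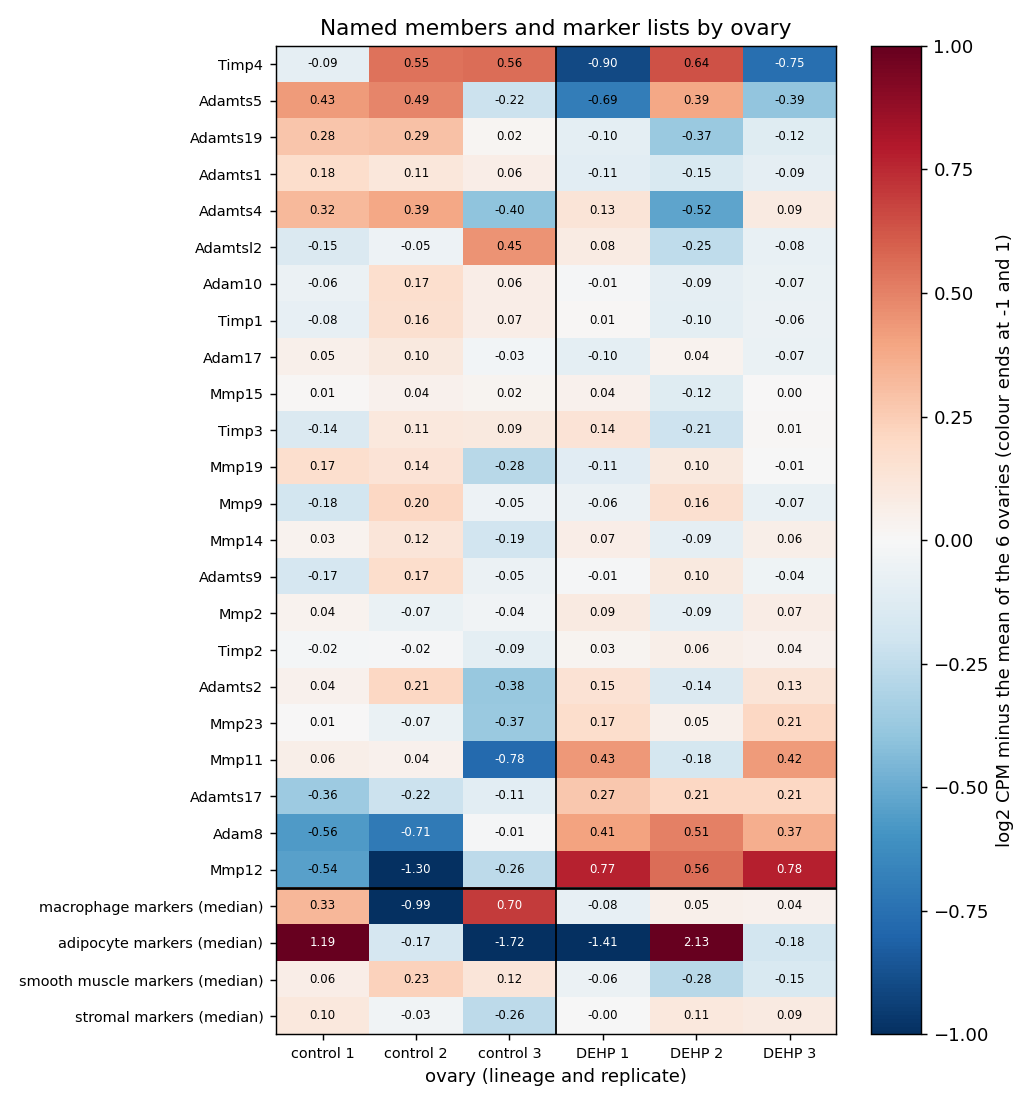
Log2 CPM of 23 members in each ovary minus their mean over the 6 ovaries, with the median of the same quantity over 4 lists of cell type markers below the line; colours end at -1 and 1, and the printed numbers give the values. Timp4 is highest in DEHP replicate 2, where adipocyte markers are at 2.13, and Adamts5 is highest in control replicate 2, where they are at -0.17. Adam8 and Mmp12 are lowest in control replicate 2, where macrophage markers are at -0.99.

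Genes that act with the proteases were counted in 6 lists. Of these, 0 genes of any list passed the adjusted threshold (limma, over all genes), where 0.0425% of all genes did. Over all genes, 4.76% had a higher and 4.02% a lower mean with an unadjusted p under 0.05 by limma, and 46.9% had a higher mean. Of 19 regulators and partners, all measured, 3 had higher means with an unadjusted p under 0.05 and 0 lower. They were the broad protease inhibitor gene A2m (0.63), the proprotein convertase gene Pcsk6 (0.33) and Rhbdf1 (0.22), which encodes an iRhom partner of ADAM17. The median of that list was 0.012. In the plasminogen system 1 of 10 measured genes was higher, the antiplasmin gene Serpinf2 (1.29), with DEHP-lineage values of 1.30, -0.76 and 0.90 that overlapped the control ovaries, and 0 were lower.

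Of the substrates, 14 proteoglycan and hyaluronan matrix genes were measured, with a median of 0.087. The pentraxin gene Ptx3, which stabilises the hyaluronan matrix of the cumulus, had a log2 fold change of 1.06 (SE 0.20, limma adjusted p 0.272), from 1.61, 1.86 and 1.39 in control to 2.70, 2.65 and 2.69 in DEHP-lineage ovaries. The aggrecan gene Acan, cut by ADAMTS proteases, was at 0.09, 0.89 and 0.16 against -1.50, -0.49 and -1.40, a difference of -1.51 (SE 0.42, limma adjusted p 0.455). Neither overlapped between lineages. Of 14 fibrillar collagen and processing genes, 11 had lower means (median -0.16), against 8734 of all 16454 genes. Col3a1 (-0.31) was the only one with an unadjusted p under 0.05, 7.14% of the list against 8.78% of all genes.

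Among 15 measured shedding substrates, 10 had lower means (median -0.096). Of these 10, 3 had an unadjusted p under 0.05, 20% of the list against 8.78% of all genes. They were the Kit ligand gene Kitl (-0.93, limma adjusted p 0.165), the EGF receptor ligand gene Hbegf (-0.54) and the Notch ligand gene Jag1 (-0.19). Hbegf was at 3.21, 3.16 and 3.44 in control and 2.64, 2.89 and 2.66 in DEHP-lineage ovaries, without overlap (limma adjusted p 0.491). Of 13 cathepsin genes, 1 had an unadjusted p under 0.05 (7.69%), Ctsf (-0.23), with a list median of -0.010.

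Promoters are shown for Mmp12 and Adamts1, members with an unadjusted p under 0.05 whose entry in RefSeq's table (GRCm38.p6) starts at the annotated gene start. Each is the 250 bases before the start, 5′ to 3′ on the gene's strand, with matches to any of 4 motifs in capitals: the AP-1 motif TGANTCA, the ETS motif AGGAAG, the GC box GGGCGG and the TATA motif TATAAA, each on both strands.
Mmp12, chr9:7344147-7344396, plus strand: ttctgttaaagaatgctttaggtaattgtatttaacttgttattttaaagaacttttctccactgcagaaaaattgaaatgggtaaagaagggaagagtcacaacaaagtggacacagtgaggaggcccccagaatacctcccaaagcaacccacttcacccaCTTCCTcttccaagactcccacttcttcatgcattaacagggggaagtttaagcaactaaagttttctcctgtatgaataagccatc
Adamts1, chr16:85803114-85803363, minus strand: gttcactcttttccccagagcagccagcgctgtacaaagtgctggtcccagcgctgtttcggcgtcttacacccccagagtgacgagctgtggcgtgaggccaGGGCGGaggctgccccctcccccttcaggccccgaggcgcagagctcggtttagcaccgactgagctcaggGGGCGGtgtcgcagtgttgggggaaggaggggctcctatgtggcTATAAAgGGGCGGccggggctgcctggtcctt
The Mmp12 window held 1 ETS match on the opposite strand, 87 bases before the start. The Adamts1 window held 3 GC boxes and a TATA match 32 bases before the start. Promoters of 31 of the 55 members were in the table. GC boxes were in 22 of these 31, ETS matches in 10, TATA matches in 2 and AP-1 matches in 0. Of the 12482 such windows of genes in the expression table, 1 per gene, 55.4% held a GC box, 27.97% an ETS match, 6.91% a TATA match and 4.50% an AP-1 match. A match is a match of letters only.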

How the data were processed

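Whole-ovary RNA was sequenced from 3 ovaries of the control lineage and 3 of the DEHP lineage. The submitters' processing notes name STAR 2.5.3a, featureCounts, Subread 1.5.2 and edgeR 3.20.5 among their tools, and the build GRCm38.p6. No source used here gives the strand setting of the counting. The table deposited by the authors holds log2 CPM per ovary with a surrogate variable removed, per the file headers and name, and the authors' log2 fold changes, p-values and adjusted p-values. A signed linear fold change, treated as a score, was deposited by the authors too and was not used. Counts are not in it, so depth is unknown and no counting interval is given.

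Each gene was tested with limma 3.58.1 (R 4.3.3) with a mean-variance trend on all 16454 genes, two-sided, with Benjamini-Hochberg adjustment and a threshold of 0.05. Residual degrees of freedom were 3 in place of 4, because removing the surrogate variable uses 1. The test was checked on simulated data. CPM values are 2 to the power of the deposited log2 CPM, and log2 fold changes are the DEHP-lineage mean minus the control-lineage mean. Exonic lengths and codons came from GENCODE M21 (GRCm38), in place of the protein table that had been planned. Values by ovary are given for members with an unadjusted p under 0.05, for 16 members studied in ovary, and for the member with the highest CPM of each family. In each pathway list up to 4 members with an unadjusted p under 0.05 are named. The members and lists were chosen with earlier results of these data known. Alternatives were other degrees of freedom, a replicate block, quantile normalization, median centring, 1 CPM added before the log, a minimum mean log2 CPM of 1, no trend, DEHP replicates 1 and 3 averaged, and leaving out each ovary.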

Additional observations from a re-analysis of the deposited data

How the results depend on the processing

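Deviations of same-numbered ovaries from their lineage means correlated at -0.33, -0.0034 and -0.20. These deviations were taken after the surrogate variable was removed, so they cannot show whether the replicate numbers paired the ovaries. With the replicate number as a block, 2 members had an unadjusted p under 0.05 and a higher mean, against 4, while the share of all genes was 1.57% against 4.76%. Without a mean-variance trend 5 had a lower mean and such a p, against 2, with 3.59% of all genes against 4.02%. Over all genes, adjusted calls numbered 7, but 20 with residual degrees of freedom not reduced, 83 with the block, 3 with quantile normalization, 1 without a trend and 3 to 270 without single ovaries. Members called numbered 0 in each setting that kept all ovaries. Leaving out each ovary gave 0 to 1 members called, 3 to 6 higher and 1 to 4 lower members with an unadjusted p under 0.05, 7 to 14 higher and 8 to 14 lower without overlap, and a median log2 fold change of -0.056 to 0.037. With the mean of log2 CPM in place of the summed CPM, the family difference reversed for Timp (-0.18), Adamtsl (0.18) and Adam (0.057). Without single ovaries the summed differences ran from 0.031 to 0.20 for Mmp, -0.020 to 0.056 for Timp, -0.14 to 0.044 for Adamts, -0.12 to 0.053 for Adamtsl and -0.088 to -0.024 for Adam. Timp reversed without control replicate 1 (-0.020) or DEHP replicate 1 (-0.017), Adamts without control replicate 2 (0.044) and Adamtsl without control replicate 3 (0.053). The cause was not tested. Of 319 alternative values for the 23 members given by ovary, 1 changed its call and 18 changed sign, in 8 members with fold changes of at most 0.20 in size. Depth is unknown, and 3 ovaries per lineage limit the precision.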
